A study of Mus musculus with 8 samples.

Results

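The 3 mouse genes named as uncoupling proteins, Ucp1, Ucp2 and Ucp3, were followed together with 5 genes known from brown fat, Dio2, Otop1, Cidea, Elovl3 and Prdm16, in hearts of female and male mice. These 8 of 49315 annotated genes were chosen by name, with their levels in the 8 libraries, their covariation between libraries and their contrast between the sexes already known. Those values are therefore a description: no p is given for these genes, and the calls of the whole-table fit are counted only to set them beside the share over all genes. RNA sequencing covered 4 libraries from females and 4 from males, all from hearts of the inbred strain C57BL/6 at an age of 8 weeks, with no treatment given in the labels. Whether each library is its own animal, and what portion of the heart it holds, is not stated in the labels, so p-values measure the spread between these libraries, which may be technical. Levels are CPM, counts relative to the scaled total of a library, and each ± is the SD over 4 libraries. A difference is the log2 ratio of female over male with its standard error (SE). A gene is said to be called where the quasi-likelihood test of edgeR, run on all genes, gave a Benjamini-Hochberg adjusted p below 0.05.

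Uncoupling protein 1 sits in the inner mitochondrial membrane of brown fat cells, where it lets protons return without making ATP and so turns fuel into heat. Cold acts through noradrenaline, beta-adrenergic receptors and cyclic AMP, which raise the transcription of Ucp1 and Dio2 and release the fatty acids that activate the protein. Its relatives Ucp2 and Ucp3 are expressed in other tissues, Ucp2 widely and in immune cells, Ucp3 mainly in skeletal muscle, heart and brown fat, and both are not regarded as heat-producing in the same way.

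Total counts lay between 32746054 and 35467832 in the female libraries and between 39612848 and 47097765 in the male ones. On these totals, before scaling, 1 count was worth 0.0212 to 0.0305 CPM. The 10 cardiomyocyte markers, led by Myh6 and Tnnt2, summed to between 95180 and 96550 CPM in females and between 88640 and 98790 CPM in males. Xist and the Y-linked genes matched the sex given for each of the 8 libraries. In these bulk samples, fewer cells of a type and less RNA per cell cannot be told apart.

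The stretch from 250 bases before to 50 bases after the RefSeq transcription start was read for the 3 genes whose female and male values did not overlap, because brown fat transcription of Ucp1 and Dio2 is known to follow cyclic AMP. Sequences are from RefSeq on GRCm38.p6, each 5′ to 3′ on the strand of its gene. Capitals mark the cyclic AMP response element, TGACGTCA, or its first 5 letters TGACG alone. The Ucp1 stretch lies at chr8:83290098-83290397 on the plus strand. That of Dio2 lies at chr12:90738989-90739288 on the minus strand, and its start is 600 bases from the gene start in the deposited tables. The Otop1 stretch lies at chr5:38277154-38277453 on the plus strand, with a start 1432 bases inside the deposited gene model.
Ucp1: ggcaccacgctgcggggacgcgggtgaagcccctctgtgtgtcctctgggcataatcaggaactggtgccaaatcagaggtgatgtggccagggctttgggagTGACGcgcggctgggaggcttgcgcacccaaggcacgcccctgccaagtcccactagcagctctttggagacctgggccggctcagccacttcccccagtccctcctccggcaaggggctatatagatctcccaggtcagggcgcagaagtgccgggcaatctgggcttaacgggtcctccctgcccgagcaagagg
Dio2: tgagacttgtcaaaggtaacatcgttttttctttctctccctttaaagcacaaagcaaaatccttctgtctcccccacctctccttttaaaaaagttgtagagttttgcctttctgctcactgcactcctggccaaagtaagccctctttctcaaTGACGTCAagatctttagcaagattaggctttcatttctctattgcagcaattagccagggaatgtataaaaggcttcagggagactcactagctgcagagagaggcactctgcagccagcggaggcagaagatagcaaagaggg
Otop1: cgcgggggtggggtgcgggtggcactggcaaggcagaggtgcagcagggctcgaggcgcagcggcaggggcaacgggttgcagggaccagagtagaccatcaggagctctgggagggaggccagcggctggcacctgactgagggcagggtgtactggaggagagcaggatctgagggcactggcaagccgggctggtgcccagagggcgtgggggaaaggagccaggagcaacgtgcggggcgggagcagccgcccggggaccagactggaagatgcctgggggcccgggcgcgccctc
The Dio2 stretch holds the full TGACGTCA at position -95 from its start and the letters TATAAA of a TATA box at -30. In Ucp1 the letters TGACG stand at -147, and in the Otop1 stretch neither form is found. Of 32851 mouse promoters of this length, 20.8% held TGACG or its reverse complement CGTCA and 1.8% held TGACGTCA. Of the 6 genes whose stretch was searched, 4 held TGACG on a strand. Besides Ucp1 and Dio2, these were Ucp2 at -62 and Ucp3 at 28, both on the opposite strand. Prdm16 held neither form. Cidea and Elovl3 are named only. These are matches of letters and not measured binding sites.

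Ucp1 had the widest range of the 8 genes. It stood at 18.3, 51.1, 81.1 and 9.37 CPM in female libraries 1 to 4, and at 0.752, 3.60, 0.0234 and 0.284 CPM in male libraries 1 to 4. Every female library lay above every male one, with female 3 the highest of all and male 2 the only male library above 1 CPM. The means were 40 ± 32.8 CPM in females and 1.17 ± 1.65 CPM in males, a log2 difference of 5.16 (SE 0.83). The value of male 3 rests on 1 count, whose exact Poisson interval at 95% is 0.0253 to 5.57 counts, for counting error only. Over the libraries of a sex, 5726 counts fell on Ucp1 in females and 187 in males. Leaving out a single library moved the log2 difference between 4.55, without female 3, and 6.84, without male 2. With female 2 and female 3 both left out, the libraries with the highest sums of thymus and lung markers, it was 3.61. The gene lies on chromosome 8 from 83290352 to 83298452 of GRCm38, with a summed exon length of 1636 bases. Its neighbours Tbc1d9 and Elmod2, 17418 and 14180 bases away, were at 5.69 and 12.2 CPM in females and at 6.66 and 11.8 CPM in males.

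**Figure D1:**
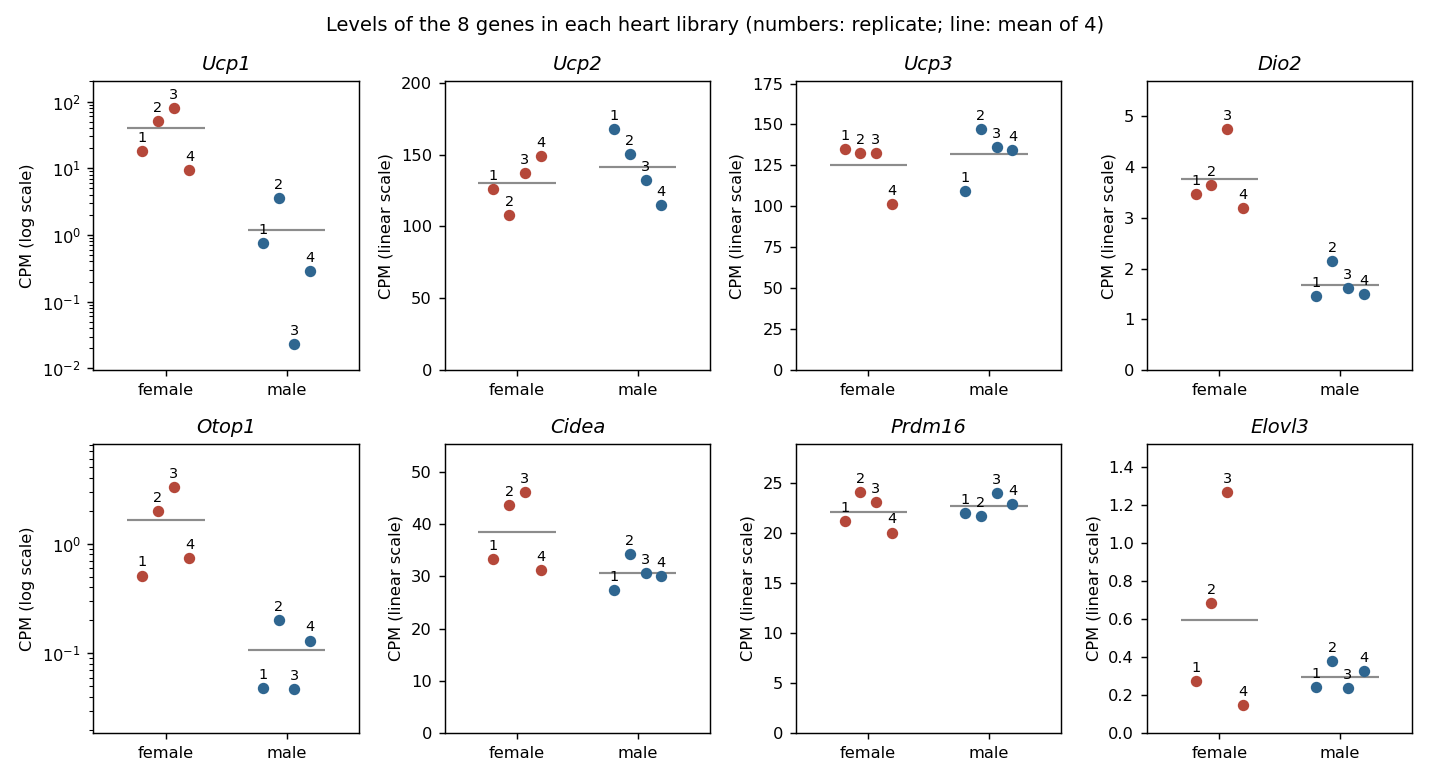
CPM of the 8 genes in each library, on log axes for Ucp1 and Otop1 and on linear axes for the others, female libraries left of male ones. Numbers mark the library and lines the mean of each sex. Ucp1, Otop1 and Dio2 show every female library above every male one, while Ucp2, Ucp3, Cidea, Prdm16 and Elovl3 overlap.

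Ucp2, the widely expressed relative, did not separate the sexes. It stood at 126, 108, 137 and 149 CPM in female libraries 1 to 4, and at 168, 150, 132 and 115 CPM in male libraries 1 to 4. The ranges overlapped, with male 1 the highest and female 2 the lowest. Means were 130 ± 17.5 CPM in females and 141 ± 22.7 CPM in males, a log2 difference of -0.12 (SE 0.11). Male 1 also had the largest sum of 12 leukocyte markers, 527 CPM against at most 299 CPM in the other male libraries and between 231.5 and 307 CPM in the female ones. Its macrophage gene Adgre1 was at 62.8 CPM and Lyz2 at 339 CPM, and the part of these cells in the Ucp2 value was not tested. On chromosome 7, Ucp2 spans 100493337 to 100502020 and Ucp3 spans 100472990 to 100486432, both on the plus strand with 6904 bases between them. Dnajb13 lies opposite Ucp2 and Gm10603 opposite Ucp3. Since the strand setting of the counting is not given in the sources used here, reads of such overlapping pairs cannot be told apart.

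Ucp3, the form of heart and skeletal muscle, overlapped between the sexes as well. It stood at 135, 132, 133 and 101 CPM in female libraries 1 to 4, and at 109, 147, 136 and 135 CPM in male libraries 1 to 4. One library of each sex was low, female 4 and male 1, and the other 6 lay close together. The means were 125 ± 16 CPM in females and 132 ± 16 CPM in males, a log2 difference of -0.07 (SE 0.10), which became 0.02 without female 4. The same 2 libraries had the lowest ratio of Ucp3 over Ucp2, at 0.68 in female 4 and 0.652 in male 1, where the other 6 lay between 0.966 and 1.23.

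Per kilobase of exon, which allows levels to be set side by side, Ucp3 was the most abundant of the 3 carriers in both sexes on average, at 40 ± 5.1 CPM per kilobase in females and 42.1 ± 5.1 in males. Ucp1 reached 24.4 ± 20 CPM per kilobase in females and 0.712 ± 1.01 in males, and Ucp2 18.6 ± 2.5 in females and 20.2 ± 3.25 in males. Ucp1 and Ucp2 in females do not differ beyond the spread of Ucp1. With the longest coding transcript in place of all exons, Ucp2 came to 32.6 CPM per kilobase in females and 35.4 in males, above Ucp1 at 24.4 in females and 0.712 in males. As a share of the summed per-kilobase level of the 3 carriers, Ucp1 made up 15.5%, 35.1%, 44.5% and 9.64% in female libraries 1 to 4. In male libraries 1 to 4 its share was 0.775%, 3.12%, 0.023% and 0.291%. In female 3 Ucp1 stood above Ucp3, at 37.9%, but with the longest coding transcript the shares there were 35.9% for Ucp1 and 39.2% for Ucp3, so their order rests on the length used. By that length, Ucp1 made up between 6.78% and 35.9% in females, against between 0.0161% and 2.2% in males.

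Dio2 encodes the deiodinase that makes active thyroid hormone inside the cell. It stood at 3.47, 3.65, 4.74 and 3.19 CPM in female libraries 1 to 4, and at 1.46, 2.16, 1.62 and 1.51 CPM in male libraries 1 to 4. The groups did not overlap, and the spread within a sex was small beside the gap. The means were 3.76 ± 0.678 CPM in females and 1.68 ± 0.322 CPM in males, a log2 difference of 1.16 (SE 0.16), or 2.24-fold. Of the 3 genes whose groups did not overlap, Dio2 varied least within a sex, with an SD of 0.25 on the log2 scale against 1.93 for Ucp1 and 0.96 for Otop1. Dio2 lies on chromosome 12 from 90724554 to 90738438 on the minus strand, and Gm26512 on the opposite strand shares 238 bases with it.

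Otop1 encodes otopetrin 1, a proton channel found in brown fat as well as in the inner ear and in sour taste cells. It was at 0.513, 2.0, 3.28 and 0.746 CPM in female libraries 1 to 4, and at 0.0485, 0.203, 0.0469 and 0.131 CPM in male libraries 1 to 4. The lowest female library lay above the highest male one, and female 3 and male 2 led their sexes as they did for Ucp1. Summed over a sex, 234 counts were found in females and 18 in males, so the male level is near the limit of detection. The means were 1.64 ± 1.28 CPM in females and 0.107 ± 0.0749 CPM in males, a log2 difference of 3.91 (SE 0.67). Otop1 passed the filter on low counts through the female libraries alone, so a gene like it had to differ to be tested at all. Without female 3 the difference was 3.33 and without male 2 it was 4.37, and with female 2 and female 3 both left out it was 2.53.

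Cidea, which encodes a lipid droplet protein that is abundant in brown fat cells, was at 33.2, 43.7, 46.2 and 31.2 CPM in female libraries 1 to 4, and at 27.4, 34.3, 30.7 and 30.1 CPM in male libraries 1 to 4. Female 2 and female 3 stood above all the others, and the remaining female libraries overlapped with the male ones. The means were 38.6 ± 7.46 CPM in females and 30.6 ± 2.87 CPM in males, a log2 difference of 0.34 (SE 0.12). Per kilobase of exon, Cidea came to 33.2 CPM in females and 26.3 CPM in males, second to Ucp3 in each sex. By the longest coding transcript it came to 34.6 CPM in females and 27.4 CPM in males, where Ucp2 in males stood above it. B430212C06Rik, on the opposite strand, shares 540 bases with the Cidea locus and was at 3.15 CPM in females and 3.14 CPM in males.

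Elovl3, an elongase of very long chain fatty acids that rises in brown fat in the cold, was at 0.272, 0.686, 1.27 and 0.149 CPM in female libraries 1 to 4, and at 0.243, 0.381, 0.234 and 0.327 CPM in male libraries 1 to 4. Female 3 and female 2 were the highest and female 4 the lowest of all 8, so the male range lay inside the female one. The means were 0.594 ± 0.505 CPM in females and 0.296 ± 0.0701 CPM in males, a log2 difference of 1.02 (SE 0.53). It was -0.48 with female 2 and female 3 left out. Only 85 counts in females and 50 in males stand behind these values.

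Prdm16, the transcriptional regulator known for holding cells to a brown fat fate, was the steadiest of the 8. It stood at 21.2, 24.1, 23.1 and 20.1 CPM in female libraries 1 to 4, and at 22.0, 21.7, 24.0 and 22.9 CPM in male libraries 1 to 4. The means were 22.1 ± 1.84 CPM in females and 22.7 ± 1.03 CPM in males, a log2 difference of -0.04 (SE 0.06) that became 0.01 without female 4. Its within-sex SD of 0.10 was close to the median of 0.11 over all 16180 genes tested. Per kilobase of exon, Prdm16, Dio2, Otop1 and Elovl3 averaged 2.37, 0.647, 0.475 and 0.397 CPM in females and 2.43, 0.29, 0.0312 and 0.198 CPM in males.

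Set against all genes, 3 of the 8 were called higher in females, Ucp1, Dio2 and Otop1, where 1.76% of the 16180 genes tested were, and 5 were not called. No member was called higher in males by edgeR, DESeq2, limma-voom or at an unadjusted p under 0.05, where 2.03% of all genes were by edgeR, and 3.79% of all genes were called in either direction. The female values all lay above the male ones for the same 3 genes, against 5.66% of all genes, and 12% of all genes did not overlap in either direction. Because the genes were selected on this contrast, nothing is read from these counts. The 8 all passed the filter on low counts, and 5 did so in every library. Ucp1 ranked 4th of 16180 genes in within-sex SD on the log2 scale, with Otop1 55th and Elovl3 76th. Otop1 and Elovl3 rest on few counts, and so does Ucp1 in males, with 31, 142, 1 and 13 counts in male libraries 1 to 4. The largest deviations of Ucp1 from the mean of its sex were 2.81 in male 2 and -2.79 in male 3.

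**Figure D2:**
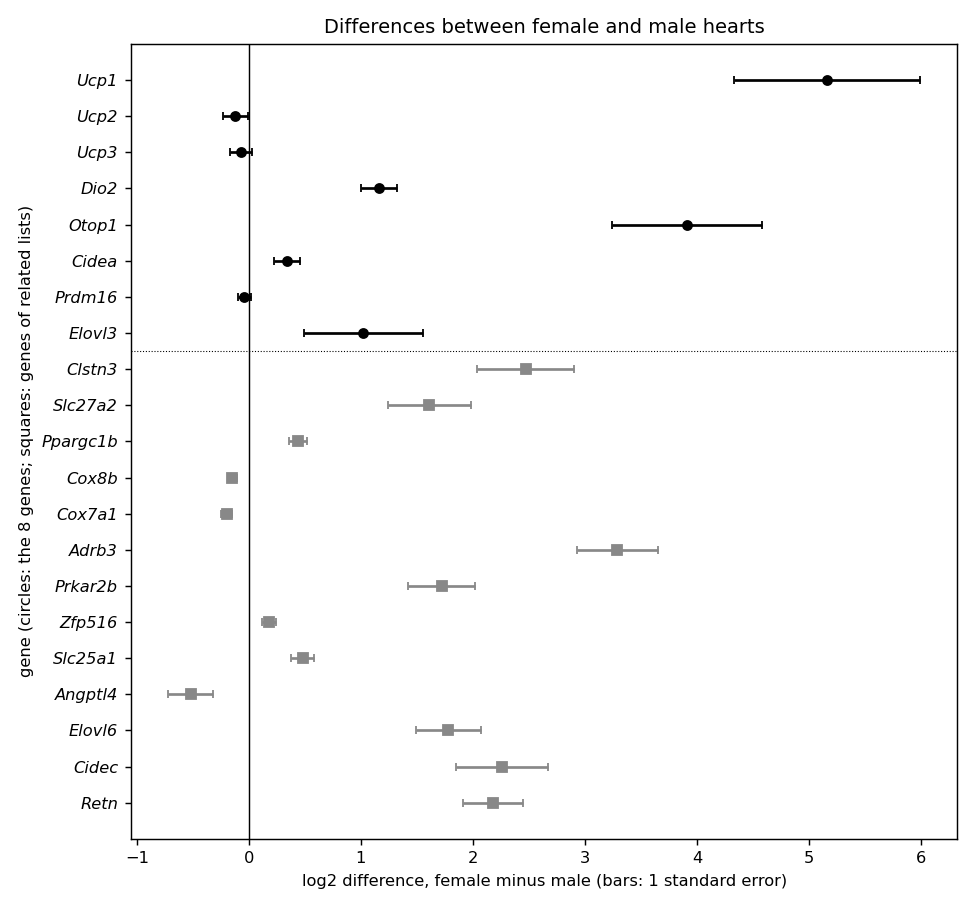
Log2 difference of female over male on the horizontal axis, with bars of 1 SE, for the 8 genes (circles) and genes named from the fat, lipid and mitochondrial lists (squares). Ucp1 at 5.16 and Otop1 at 3.91 lie farthest from 0, and Ucp2, Ucp3 and Prdm16 lie next to it.

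Within a sex the libraries were ordered alike for several of these genes. Female 3 was the highest female library for 5 of the 8 genes and female 4 the lowest for 6, while male 2 was the highest male library for 6. After each gene was centred on the mean of its own sex, the 10 pairs among Ucp1, Otop1, Elovl3, Cidea and Dio2 had a Pearson r of 0.60 to 0.93 over the 8 libraries, with a median of 0.76 and a Spearman rho of 0.67 to 0.95. By r, Cidea and Elovl3 were the closest pair (r = 0.93, rho = 0.93), followed by Otop1 and Cidea (r = 0.91, rho = 0.88), and by rho, Otop1 and Elovl3 (r = 0.89, rho = 0.95). Without the 2 libraries farthest from the median of the first gene, r over the 10 pairs ran from 0.34 to 0.90. Ucp2 had r = -0.59 and rho = -0.19 with Ucp3 and r = -0.65 and rho = -0.64 with Prdm16, while r of Ucp3 with Prdm16 was 0.51, and -0.59 without female 4 and male 1. The 15 pairs between these 3 genes and the other 5 had r from -0.34 to 0.72, which overlaps with the range of the 10 pairs. Without the 2 farthest libraries, r over the 15 pairs ran from -0.24 to 0.88, the highest for Dio2 and Prdm16. The points of a pair share their library and so its depth and tissue composition. The split into these 5 genes and the other 3 was set by hand, with the covariation already known. Prdm16 was placed with Ucp2 and Ucp3 although it is also known from brown fat. Its r with Cidea was 0.72, against 0.60 for Ucp1 with Cidea. The covariation was among the values the genes were chosen on, so nothing is read from these ranges and no p is given.

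**Figure D3:**
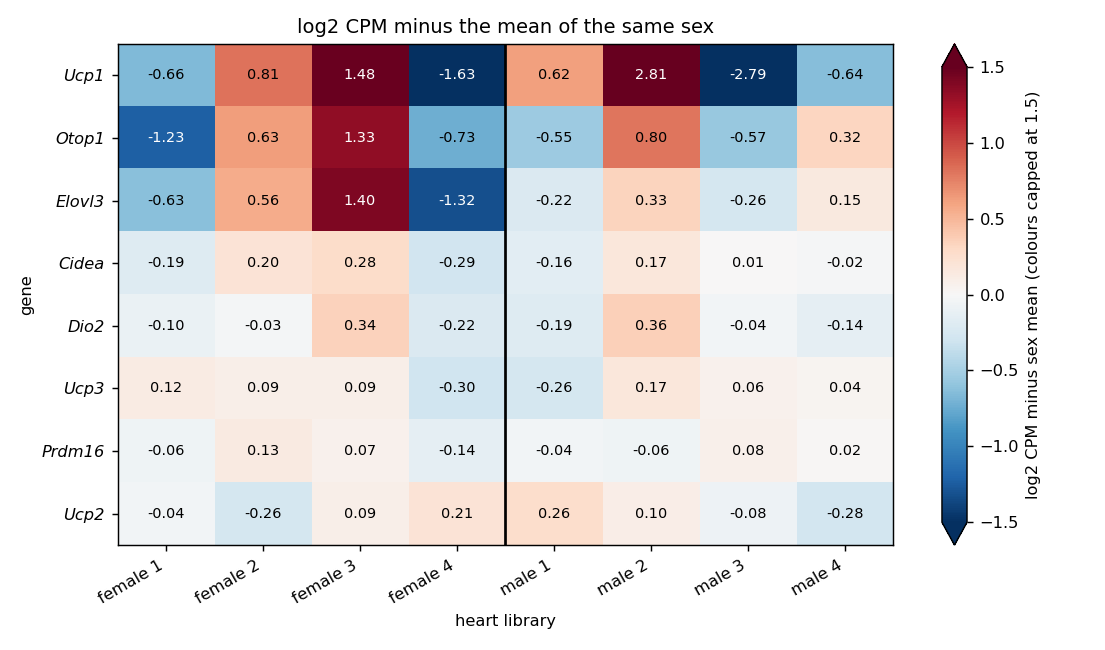
Log2 CPM of each gene minus the mean of its own sex, one column per library with female libraries left of male ones. Colours are capped at 1.5. Among females, female 3 is the highest for 5 genes and female 4 the lowest for 6, and among males, male 2 is the highest for 6.

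The genes whose sex-centred profile over the 8 libraries was most like each member were taken from 12373 genes, so high values of r are found by search alone. For Ucp1 these were Ppp1r26 (r = 0.991), Cenpc1 (0.954) and Cep70 (0.950). For Ucp2 they were Vsig4, Haus5 and Slc25a37 (0.975 to 0.980), and for Ucp3 Ralgds, Wnt11 and Slc25a22 (0.973 to 0.991). Dio2 was most like Capn5, Arpp21 and Thap7 (0.958 to 0.983), Otop1 most like Rnf26, Fam126a and Tmem151a (0.946 to 0.967), and Cidea most like Serpina1c, Dclre1a and Igfbp5 (0.961 to 0.978). Prdm16 went with Axin2, Cdh5 and Aldh1l1 (0.957 to 0.972), and Elovl3 with Txlna, Dclre1a and Garem1 (0.966 to 0.986). The white and brown adipocyte lists hold none of these genes, but only the 3 highest were kept for each member. Genes with a low mean level or a clone name were not searched. With Ucp1, r over the tested white adipocyte markers ran from -0.06 to 0.76, with a median of 0.46. Over the tested brown and beige markers it ran from -0.75 to 0.83, with a median of 0.06.

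White adipocyte markers were higher in females for 9 of 15 genes. All 15 were tested, those 9 were called higher in females and 6 were not called, with a median log2 difference of 2.18 against 0.001 over all genes. Their sum was 889.7 to 1186 CPM in females and 756.5 to 874 CPM in males, and no defining marker was at 0. The largest part of this sum was Fabp4, which was not called, at 527 ± 24.8 CPM in females and 494 ± 21.6 CPM in males. The sum therefore shows little of the difference of the called markers. Adipoq, the hormone of fat cells, stood at 9.69, 19.2, 20.6 and 11.8 CPM in female libraries 1 to 4 and at 2.48, 2.77, 1.62 and 4.60 CPM in male libraries 1 to 4. Among males it was highest in male 4, whereas Ucp1 was highest in male 2. Retn, which encodes resistin, was 4.53-fold higher in females (adjusted p = 0.0014), and Adrb3, the beta-3 receptor through which noradrenaline acts on fat cells, was 9.79-fold higher (adjusted p = 0.00075). The ratio of Ucp1 over Adipoq was 1.89, 2.65, 3.93 and 0.795 in female libraries 1 to 4 and 0.304, 1.30, 0.0145 and 0.0616 in male libraries 1 to 4, the third male value resting on 1 count of Ucp1. So Ucp1 and Adipoq did not keep a fixed ratio, and male 2 lay above female 4. The ratio of Dio2 over Adipoq was between 0.189 and 0.358 in the female libraries and between 0.327 and 1.0 in the male ones. The part of fat tissue in the Ucp1, Dio2 and Otop1 values was not tested.

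**Figure D4:**
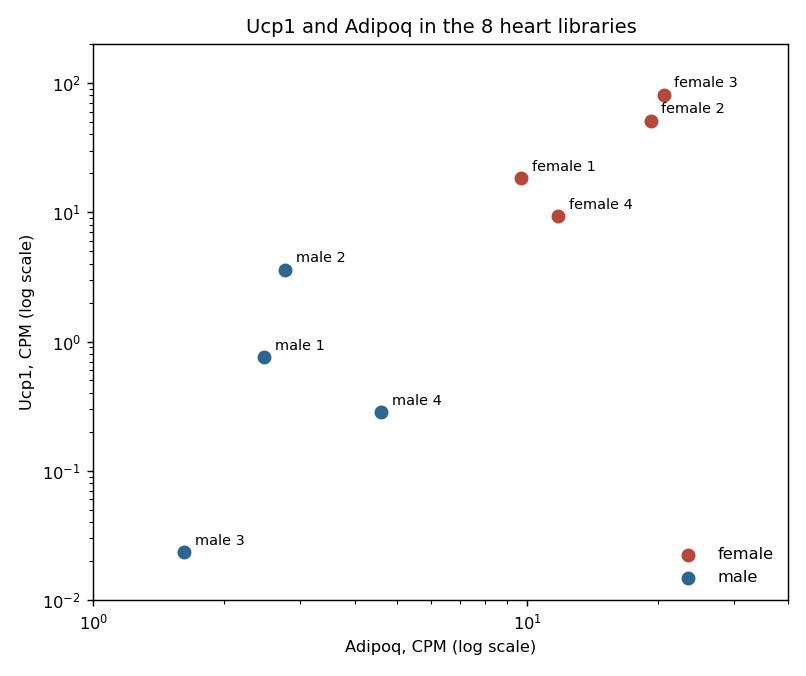
Ucp1 against Adipoq in CPM, both on log axes, one point per library with its number. The 4 female libraries lie above and to the right of the male ones, and male 3, with 1 count of Ucp1, lies lowest.

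Of 20 further brown and beige fat markers, 16 were tested and 2 were called higher in females, the remaining 14 not. The median log2 difference was 0.16, with 13 of the 16 positive. At an unadjusted p under 0.05 by edgeR, 7 were higher in females and 1 in males. DESeq2 called 4 higher in females and limma-voom 1, and both called 0 higher in males. Clstn3, which encodes a calsyntenin, was 5.55-fold higher (adjusted p = 0.011) and Slc27a2, a fatty acid transporter and activating enzyme, 3.04-fold higher (adjusted p = 0.038). The call of Slc27a2 held in 2 of the 8 fits that left out 1 library, those without female 1 and without female 4, and its adjusted p reached 0.10 without male 3. Lhx8, Bmp8b, Tmem26 and Tnfrsf9 were too low to test.

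Of 16 genes that brown fat shares with heart muscle, 1 was called higher in females, 2 were called higher in males and 13 were not called, with a median of -0.09. Ppargc1b, a coactivator of mitochondrial genes, had a log2 difference of 0.44 (SE 0.08, adjusted p = 0.011). Cox8b (-0.15, adjusted p = 0.040) and Cox7a1 (-0.20, adjusted p = 0.048), subunits of cytochrome c oxidase, were the 2 lower in females. Each of these calls held in 1 of the 8 fits that left out 1 library, that without female 1, and adjusted p reached 0.11 and 0.13 without male 3. Cox7a1 also lost its call with DESeq2 size factors (adjusted p = 0.052), upper quartile scaling (0.054) and a filter of 1 CPM in 4 libraries (0.05).

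Among 18 genes of adrenergic signalling and lipolysis, 3 were called higher in females and 15 were not called, with a median of 0.02. These were Adrb3, Prkar2b, a regulatory subunit of protein kinase A (3.29-fold, adjusted p = 0.011), and Adrb1, the main cardiac beta receptor (log2 difference 0.32, adjusted p = 0.012), which was named after its value was seen. Of 13 partners of Prdm16, edgeR called 0, as did DESeq2 and limma-voom, with 2 at an unadjusted p under 0.05, and Zfp516 came nearest (log2 difference 0.18, adjusted p = 0.13). Of 10 tested genes of thyroid hormone conversion and transport, 0 were called by any of the 3 tools, with 2 at an unadjusted p under 0.05.

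Among 12 other mitochondrial carriers, 1 was called higher in females and 11 were not called. It was Slc25a1, the citrate carrier (log2 difference 0.48, adjusted p = 0.028), whose call held in the fits without male 1 and without male 2 and reached an adjusted p of 0.077 without male 3. Of 9 tested targets of PPAR receptors, 0 were called by any of the 3 tools, with 2 at an unadjusted p under 0.05, and Angptl4 came nearest (-0.52, adjusted p = 0.18), called without a filter. Relatives of the members held 2 calls higher in females among 7 tested, Elovl6 (3.45-fold, adjusted p = 0.0074) and the lipid droplet gene Cidec (4.78-fold, adjusted p = 0.013). Otop2 had 2 counts over all libraries and Otop3 had 0. Of the white adipocyte markers, Adrb3, Cidec, Lipe and Thrsp also stand in other lists.

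Cell types other than fat were followed by 4 more lists. Of 10 cardiomyocyte markers, edgeR and limma-voom called 0 and DESeq2 called 1, with 1 at an unadjusted p under 0.05, and Myl3 came nearest (-0.14, adjusted p = 0.096). Of 6 tested skeletal muscle markers, Acta1 was called lower in females (log2 difference -0.69, adjusted p = 0.028) and 5 were not called. Its call held in 3 of the 8 fits with 1 library left out and reached an adjusted p of 0.076 without male 3. Acta1 stood at 315 CPM in females and 508 CPM in males, while Tnnc2, Myh1, Myh2 and Myh4 were too low to test. The median log2 difference of the 6 was -0.07, with 2 positive. Of 12 leukocyte markers, S100a9 was 4.83-fold higher in females (adjusted p = 0.0063) and 11 were not called. S100a9 stood at 1.36 ± 0.51 CPM in females and 0.28 ± 0.138 CPM in males. The median log2 difference of the 12 was -0.23, with 4 positive, so most went the other way. DESeq2 called 2 of the 12 higher in females and 1 higher in males. Male 1 had the highest sum of these markers among males, at 527 CPM, where the next male library stood at 299 CPM. Of 3 tested thymus and lung markers, 0 were called by any of the 3 tools, with 1 at an unadjusted p under 0.05. The sum of all 8 listed, tested or not, was between 0.966 and 21.7 CPM in the female libraries and between 0.607 and 2.38 CPM in the male ones. Scgb1a1, a gene of airway epithelium, stood at 19.8 CPM in female 3, and Sftpc, of lung alveoli, at 2.30 CPM in female 2. In the other libraries Scgb1a1 was at most 0.837 CPM, in male 2, and Sftpc at most 0.0298 CPM. Female 3 and female 2 are the 2 libraries with the most Ucp1, and male 2 has the most among males. The part of tissue around the heart in their Ucp1 values was not tested.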

How the data were processed

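RNA-seq of 8 mouse heart libraries, 4 female and 4 male, was measured with the Illumina TruSeq kit from 1 µg of total RNA extracted with Trizol, per the labels' protocols. The authors deposited raw counts for 49315 genes, and a normalized signal that holds each count divided by 1 size factor per library, as found from the values. The submitters' processing notes name Trimmomatic 0.36, STAR 2.5.2b, featureCounts and Subread 1.5.2 with GRCm38 (mm10), without their order. Annotation version and strand setting are not given in the sources used here. The normalized signal holds 16160 genes, and 100% of its values were whole within 0.01 when multiplied back. The count test on those recovered reads called 613 genes.

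After filterByExpr with a minimum count of 10 and a minimum total of 15, 16180 genes remained. They were scaled by TMM and fitted with the quasi-likelihood test of edgeR 4.0.16 in R 4.3.3, female minus male, with Benjamini-Hochberg adjustment over all genes. CPM is relative to TMM-scaled totals, and its log2 has a prior count of 2 added. Total counts ran from 32746054 to 47097765 per library. The common biological coefficient of variation was 0.0814. Alternatives were other scalings, filters, DESeq2 1.42.0, limma 3.58.1, a replicate block, thinning and leaving out libraries.

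The 8 genes and the 14 lists were chosen with earlier results of these data known. Named are the 8 genes, up to 2 called genes a list and direction with the smallest p (or the nearest where no gene was called), the 3 genes most like each member, and overlapping or neighbouring genes. A gene this rule names is not reported here. Coordinates are those of the deposited tables. Sequences were matched by symbol to the RefSeq promoter table of GRCm38.p6.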

Additional observations from a re-analysis of the deposited data

Results flagged for a closer look

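Of 42 groups of 4 libraries examined for a single library far from the rest, 3 held one. Chance alone flags about 1 in 20 groups. Ucp3 was at 101 CPM in female 4, where the next female library stood at 132 CPM. The sum of the leukocyte markers was 527 CPM in male 1, where the next male library stood at 299 CPM. The sum of the thymus and lung markers was 21.7 CPM in female 3, where the next female library stood at 3.79 CPM.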

How the results depend on the processing

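The count of genes called was 959 with DESeq2 against 613, and 315 to 490 with 1 library left out (315 without male 3, 354 without female 2, 379 without female 3). The calls of Ucp1, Dio2 and Otop1 held in each of those 8 fits, under both other scalings, DESeq2, the deposited signal and thinning. Without a filter, 917 genes were called, 4 of them members (Cidea added). A filter of 1 CPM in 4 libraries gave 574 genes and 2 members (Otop1 not tested). With limma-voom, 615 genes and 2 members were called (Ucp1 lost). The members were selected on the contrast, and nothing is read from their calls. With female 2 and 3 both left out, chosen after seeing the data, 131 genes and 1 member (Dio2) were called. With 1 library left out, the differences of Ucp3 ran from -0.15 to 0.02, of Prdm16 from -0.08 to 0.01 (both above 0 without female 4) and of Scgb1a1 from -0.47 (without female 3) to 5.11. Also reversed was Elovl3, at -0.48 without female 2 and 3. The replicate block called 427 genes and 3 members, with Acta1, Cox7a1 and Cox8b lost. Deviations of same-numbered libraries correlated at 0.02, -0.02, 0.05 and -0.05, so no common deviation was seen over all genes. Shared handling that moves fewer genes was not tested. The causes were not tested. Of the results recomputed, 453 kept direction and side of the threshold, 41 were weaker and 4 stronger. Among the 10 pairs of Ucp1, Otop1, Elovl3, Cidea and Dio2, no correlation moved by 0.1 or more with a prior count of 0.5 or DESeq2 size factors, and the other pairs were not recomputed. Depth limits Otop1, Elovl3 and male Ucp1, where single counts move the value.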
